A study of Homo sapiens with 19 samples.

Results

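The members described here are 10 factors of BMP signalling, the 6 bone morphogenetic protein (BMP) ligands BMP2, BMP4, BMP5, BMP6, BMP7 and GDF6 and the 4 inhibitor of DNA binding genes ID1, ID2, ID3 and ID4. They were taken by gene symbol, and all 10 were found among the 33382 genes in each of the 19 samples. The samples are bulk RNA-seq of H1, an established human embryonic stem cell line. WT H1 and 5 knockout lines made from it by CRISPR/Cas9 had 2 samples each, namely those that lack SUZ12 (SUZ12-/- H1), EED (EED-/- H1), EZH2 (EZH2-/- H1), EZH1 (EZH1-/- H1) or both enzymes (EZH2-/-/EZH1-/- H1). The line H1-EED-/-/EED-OE lacks endogenous EED and carries an EED transgene induced by doxycycline (DOX), and it was sampled once under DOX (+DOX) and once at days 8, 12, 16, 20, 24 and 28 of withdrawal. EED, SUZ12 and the EZH1 or EZH2 enzymes form Polycomb repressive complex 2 (PRC2), which places the repressive mark H3K27me3 on histone H3. The study describes the mark as lost without EED, without SUZ12 or without both enzymes, and these 3 lines are called PRC2-null here. It describes the mark as kept in the 2 lines that lack a single enzyme, but at lower levels than in WT H1 cells. Samples said here to keep the mark are those of WT H1 and of these 2 lines. The 2 samples of a knockout line carry different clone names in the labels, so the spread between them includes that between clones, and the knockout line behind the DOX samples is 1 engineered line followed once.

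BMP ligands are secreted dimers of the TGF-β family. They bring together type I and type II receptor kinases, which phosphorylate SMAD1, SMAD5 and SMAD9, and these enter the nucleus with SMAD4 and bind DNA. The ID genes are among the best known direct targets of this route. ID proteins carry a helix-loop-helix domain but no DNA-binding region, and they capture E proteins such as TCF3 and so keep lineage bHLH factors from DNA. In human embryonic stem cells, added BMP4 is a classical inducer of mesoderm, trophoblast-like and amnion-like differentiation.

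The values are TPM, the share of a gene among all transcripts after correction for its length. Every sample has the same sum, so read depth is unknown. In bulk RNA, fewer cells that express a gene and less RNA per cell cannot be told apart. Between 14389 and 17043 genes per sample had a TPM of at least 1. The gene-level TPM of the targeted genes did not check the knockout labels, since the study deleted a functional domain and the rest of the transcript is still counted: EED read 14.3 and 22.4 TPM in EED-/- H1 cells against 17.3 and 22.0 in WT H1 cells. The DOX label was checked by the transgene, with EED at 108.5 TPM in the +DOX sample and 12.6 to 31.6 TPM at the 6 days without DOX. The 8 pluripotency markers POU5F1, NANOG, SOX2, LIN28A, DNMT3B, ZFP42, TDGF1 and DPPA4 summed to 5921 to 7125 TPM in the 6 samples that keep H3K27me3 and to 182 to 491 TPM in the 6 PRC2-null samples. The cells of the PRC2-null lines, labelled embryonic stem cells, thus held far less of the defining markers.

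Gene positions and promoters come first, since CpG-rich promoters are the usual ground of PRC2. GENCODE release 44 on GRCh38, the build that the authors used, places BMP2 on chromosome 20 (6767686 to 6780246), BMP7 on chromosome 20 (57168753 to 57266641), BMP4 on chromosome 14 (53949736 to 53958761), BMP5 on chromosome 6 (55753653 to 55875590) and BMP6 on chromosome 6 (7726099 to 7881728). The ID genes are short and lie on chromosome 20 (ID1, 31605283 to 31606515), chromosome 2 (ID2, 8678845 to 8684461), chromosome 1 (ID3, 23557926 to 23559501) and chromosome 6 (ID4, 19837370 to 19842197). RefSeq promoters, 250 bases before and 50 after the start site on GRCh38.p14, were listed for 7 of the 10 members, and BMP2, BMP7 and GDF6 had no entry. Those of the leading ligand BMP4, of the pair BMP5 and BMP6 that separates the PRC2-null lines and of ID1 and ID4, abundant and scarce in WT H1 cells, are printed with the CpG dinucleotides in capitals.

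BMP4, first of 3 start sites, chr14:53955001-53955300, minus strand: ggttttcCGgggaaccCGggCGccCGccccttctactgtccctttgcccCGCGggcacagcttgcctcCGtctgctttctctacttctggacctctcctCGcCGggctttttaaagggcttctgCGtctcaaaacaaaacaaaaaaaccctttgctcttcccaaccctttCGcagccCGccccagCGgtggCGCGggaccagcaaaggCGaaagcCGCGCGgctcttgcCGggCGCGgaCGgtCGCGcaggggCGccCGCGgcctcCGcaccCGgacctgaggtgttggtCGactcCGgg
BMP5, chr6:55875541-55875840, minus strand: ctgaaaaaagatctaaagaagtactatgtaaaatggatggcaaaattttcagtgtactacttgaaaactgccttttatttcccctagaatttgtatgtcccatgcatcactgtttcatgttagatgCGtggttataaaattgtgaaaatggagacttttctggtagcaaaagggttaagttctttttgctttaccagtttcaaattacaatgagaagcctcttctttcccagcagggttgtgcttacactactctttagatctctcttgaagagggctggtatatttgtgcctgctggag
BMP6, chr6:7725849-7726148, plus strand: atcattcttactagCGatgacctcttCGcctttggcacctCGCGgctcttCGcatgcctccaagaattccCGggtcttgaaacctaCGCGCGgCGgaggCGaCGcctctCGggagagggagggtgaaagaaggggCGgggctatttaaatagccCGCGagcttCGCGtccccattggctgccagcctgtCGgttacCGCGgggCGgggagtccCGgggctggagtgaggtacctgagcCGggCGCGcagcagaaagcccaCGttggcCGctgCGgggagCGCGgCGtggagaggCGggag
ID1, chr20:31605039-31605338, plus strand: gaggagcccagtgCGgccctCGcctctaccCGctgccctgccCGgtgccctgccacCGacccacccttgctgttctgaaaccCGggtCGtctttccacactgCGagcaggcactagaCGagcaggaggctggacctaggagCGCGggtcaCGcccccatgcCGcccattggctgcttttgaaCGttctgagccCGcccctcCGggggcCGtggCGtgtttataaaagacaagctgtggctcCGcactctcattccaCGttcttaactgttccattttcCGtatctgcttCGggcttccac
ID4, chr6:19837120-19837419, plus strand: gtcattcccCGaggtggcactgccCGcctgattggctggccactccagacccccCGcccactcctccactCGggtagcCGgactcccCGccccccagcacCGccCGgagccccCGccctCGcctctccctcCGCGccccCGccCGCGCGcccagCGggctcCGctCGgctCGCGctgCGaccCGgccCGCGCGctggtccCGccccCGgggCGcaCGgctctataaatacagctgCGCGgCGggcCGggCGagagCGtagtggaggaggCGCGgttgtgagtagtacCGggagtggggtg

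The BMP4 window held 32 CpG and the BMP6 window 33, above the median of 14 over the 35116 promoters of the table. BMP5 was the exception, with 1 CpG in 300 bases and a GC content of 37.3% against a median of 58.7%. Of all promoters, 10.97% had 1 CpG or none. The ID promoters held 22 (ID1), 33 (ID2), 27 (ID3) and 39 (ID4) CpG, so that ID4 lay at the 91.3 percentile of the table. The box TATAAA, read on the gene's own strand in the 50 bases before the start, was present in ID1 and ID4 and in 2.64% of all promoters. BMP5 had the lowest level of the ligands in the 6 samples that keep H3K27me3, level with GDF6 in EZH1-/- H1 sample 1, and it was also the ligand whose promoter is poorest in CpG among the 3 ligands with an entry.

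SMAD1 and SMAD5 bind GC-rich elements beside GTCT, the box read by SMAD4. The spaced form GGCGCC, 5 bases, then GTCT was searched on both strands from 3000 bases before to 500 bases after the canonical start site. It occurred at 1 of the 4 ID genes, ID3, and at 137 of the 20045 protein-coding start sites (0.683%). A looser form, GGNGCC, 5 bases, then GTCT, was tried only after that result and matched the same place at ID3, no other ID gene, and 3.61% of start sites. The ID3 match, which lies 2962 bases upstream, is printed with 20 bases on either side and the motif letters in capitals.

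ID3 element, chr1:23562429-23562483, minus strand: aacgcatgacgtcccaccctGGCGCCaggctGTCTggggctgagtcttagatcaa

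For ID1, ID2 and ID4 the search says only that these letters are not in the window.

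Across the 6 lines, the ligands were higher in PRC2-null cells and the ID genes split. All 6 ligands, ID2 and ID4 rose when the 3 PRC2-null lines were averaged and set against WT H1, ID1 rose by less than the 3-fold required, and ID3 did not pass the test. Calls are from limma on log2(TPM + 1), with an adjusted p of at most 0.01 and a fold of at least 3, in 1 fit of the 12 samples over 19100 genes. In this average 8 of 10 members were higher, against 13.6% of all genes tested. BMP5 and GDF6 passed the filter on low values only through PRC2-null samples, so a difference was built into their passing.

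**Figure D1:**
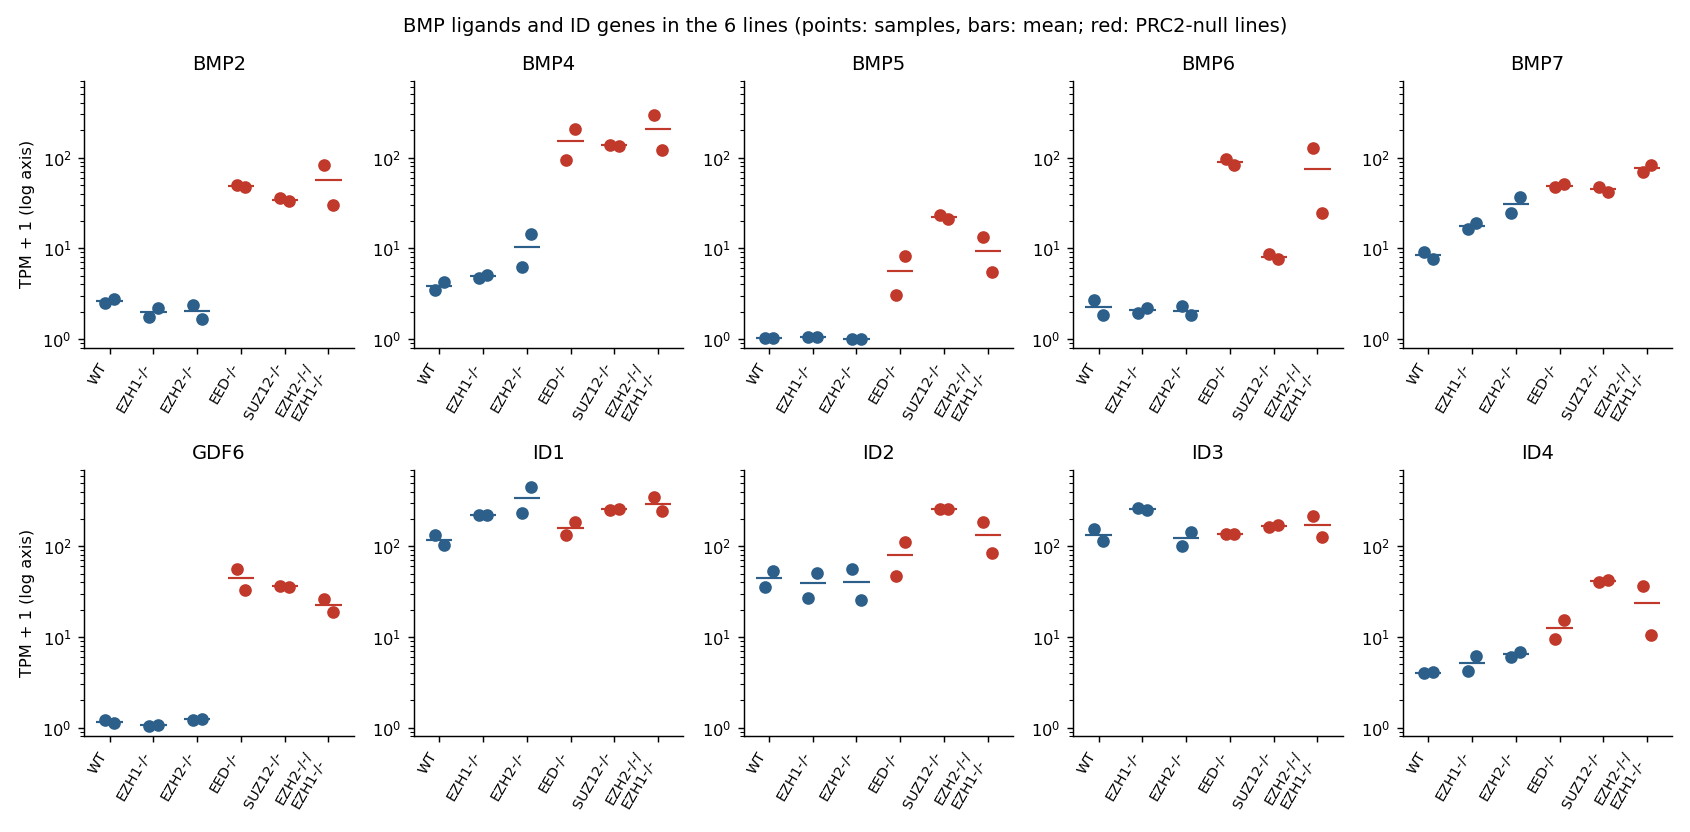
TPM + 1 on a shared log axis for each of the 10 members in the 6 lines; points are samples (n = 2 per line), bars are means, and red marks the PRC2-null lines. The red points of the 6 ligands and of ID4 lie above every blue point, while those of ID1, ID2 and ID3 overlap with the blue points.

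BMP4, the ligand used to drive mesoderm and trophoblast-like fates in culture, was the most abundant ligand in 5 of the 6 PRC2-null samples. It read 2.50 and 3.25 TPM in WT H1, 3.73 and 4.13 in EZH1-/- H1, 5.22 and 13.4 in EZH2-/- H1, 92.5 and 207 in EED-/- H1, 139 and 135 in SUZ12-/- H1, and 293 and 121 in EZH2-/-/EZH1-/- H1 cells. The groups did not overlap. Over the 3 PRC2-null lines BMP4 was higher by 5.32 ± 0.40 (SE) on the log2(TPM + 1) scale, 39.9-fold (limma, adjusted p = 1.8e-06).

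BMP2, the closest relative of BMP4, went from 1.51 and 1.79 TPM in WT H1 and 0.67 to 1.37 TPM in the single knockouts of EZH1 and EZH2 to 29.0 to 81.2 TPM in the PRC2-null samples. Its average rise was 4.04 ± 0.33, 16.4-fold (limma, adjusted p = 3.2e-06). GDF6, a ligand of joint and eye development that lies on chromosome 8 (96142333 to 96160806), read 0.04 to 0.26 TPM in the 6 samples that keep H3K27me3 and 17.7 to 55.2 TPM in the 6 PRC2-null samples. It had the smallest adjusted p of the 10 members, 1.7e-07 by limma, with a rise of 4.80 ± 0.25. GDF6 passed the filter on low values only through PRC2-null samples, so a difference was built in and this rank is a description. Neither gene had a PRC2-null sample near the others.

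BMP7, a ligand of kidney and eye development, was the highest of the ligands in every sample that keeps the mark. It read 8.19 and 6.63 TPM in WT H1, 15.5 and 17.8 in EZH1-/- H1, 23.3 and 36.1 in EZH2-/- H1, and 41.1 to 81.7 TPM in the PRC2-null lines. The groups did not overlap, but the highest EZH2-/- H1 sample came close to the lowest SUZ12-/- H1 sample. The average rise was 2.72 ± 0.20, 6.57-fold (limma, adjusted p = 1.3e-06), the smallest of the 6 ligands. In EZH2-/- H1 cells BMP7 was 3.58-fold above WT H1, with a 95% confidence interval of 1.31 to 2.37 on the log2 scale and a limma adjusted p of 0.023.

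BMP5 and BMP6 belong to the BMP7 subgroup and set the PRC2-null lines apart from one another. BMP5 was listed at 0 in both EZH2-/- H1 samples and at 0.03 or 0.04 TPM in WT H1 and EZH1-/- H1 cells, and read 2.09 and 7.24 TPM in EED-/- H1, 22.5 and 19.9 in SUZ12-/- H1, and 12.3 and 4.49 in EZH2-/-/EZH1-/- H1 cells. BMP6 read 0.82 to 1.70 TPM in the 6 samples that keep the mark, 94.8 and 82.8 in EED-/- H1, 7.57 and 6.64 in SUZ12-/- H1, and 125 and 23.4 in EZH2-/-/EZH1-/- H1 cells. SUZ12-/- H1 cells thus had the highest BMP5 and the lowest BMP6 of the PRC2-null lines.

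That crossing was tested between the lines. Against EED-/- H1, SUZ12-/- H1 cells had 1 member higher, BMP5 by 2.13 ± 0.47 (limma, adjusted p = 0.01), where 3.54% of all genes were higher, and 1 lower, BMP6 by -3.47 ± 0.58 (limma, adjusted p = 0.0021), where 2.58% were lower. Against EZH2-/-/EZH1-/- H1, 0 members were higher (3.32% of all genes, and GDF6, BMP5 and ID4 at an unadjusted limma p under 0.05), and 1 was lower, BMP6 by -2.78 ± 0.58 (limma, adjusted p = 0.0092; 1.14% of all genes were lower). EZH2-/-/EZH1-/- H1 against EED-/- H1 gave 0 members by limma, with 3 of 10 at an unadjusted p under 0.05 and 0.0314% of all genes higher. The BMP5 call sat at the threshold, and leaving out a sample ended it unless that was EED-/- H1 sample 2 or a sample of EZH2-/-/EZH1-/- H1 (limma adjusted p of 0.0176 to 0.0868, the highest without EED-/- H1 sample 1). It also ended with a pseudocount of 0.1, with no filter on low values and with only the lines compared (limma adjusted p of 0.0318, 0.0185 and 0.0326). The BMP6 call against EED-/- H1 was lost when a sample of either line was left out (limma adjusted p of 0.0134 to 0.0247), and that against EZH2-/-/EZH1-/- H1 when any sample outside that line was (0.0163 to 0.0765), as well as with that pseudocount, with no filter and with only the lines compared (0.0182, 0.0189 and 0.145). The direction stayed in each fit without a sample, with BMP5 at 1.43 or more, BMP6 at -3.37 or lower against EED-/- H1, and BMP6 against EZH2-/-/EZH1-/- H1 at -1.59 without sample 1 of that line and at -2.70 or lower otherwise.

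The 4 ID genes did not follow the ligands as a block. ID4, low in WT H1 cells, read 3.0 and 3.07 TPM there, 3.21 and 5.13 in EZH1-/- H1, 5.06 and 5.80 in EZH2-/- H1, 8.62 and 14.2 in EED-/- H1, 39.5 and 41.2 in SUZ12-/- H1, and 35.2 and 9.64 in EZH2-/-/EZH1-/- H1 cells. The groups did not overlap, and the average rise was 2.41 ± 0.39, 5.31-fold (limma, adjusted p = 0.00038). ID2, which marks early mesoderm and trophoblast, read 34.2 and 53.1 TPM in WT H1, 46.4 and 111 in EED-/- H1, 255 and 259 in SUZ12-/- H1, and 184 and 83.3 in EZH2-/-/EZH1-/- H1 cells, so the lower EED-/- H1 sample lay within the range of 24.5 to 54.8 TPM of the samples that keep the mark. Its average rise of 1.61 ± 0.43, 3.05-fold, sat just past the fold required (limma, adjusted p = 0.008). The call ended with median ratio scaling (1.49), with no filter on low values (limma adjusted p = 0.0175), with the SUZ12-/- H1 samples averaged (limma adjusted p = 0.0162), and without WT H1 sample 1 or 2, EED-/- H1 sample 2, EZH2-/-/EZH1-/- H1 sample 1 or SUZ12-/- H1 sample 1 or 2 (limma adjusted p of 0.0122 to 0.103, the highest without WT H1 sample 1).

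ID1 and ID3 were abundant before any loss of PRC2. ID1, the classical BMP target, read 132 and 102 TPM in WT H1, 221 and 218 in EZH1-/- H1, 234 and 446 in EZH2-/- H1, 133 and 186 in EED-/- H1, 252 and 258 in SUZ12-/- H1, and 348 and 243 in EZH2-/-/EZH1-/- H1 cells. Its highest value of the 12 samples was in EZH2-/- H1 cells, which keep H3K27me3. Against WT H1 alone the PRC2-null average was 1.95-fold higher (0.96 ± 0.24; limma, adjusted p = 0.0061), under the 3-fold required. ID3, which shares most ID1 functions in many tissues, read 154 and 114 TPM in WT H1, 262 and 251 in EZH1-/- H1, 101 and 144 in EZH2-/- H1, and 125 to 216 TPM in the PRC2-null samples. Its difference was 0.23 ± 0.21 with an interval of -0.25 to 0.70 (limma, adjusted p = 0.39).

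Since ID1 and ID3 varied among the lines that keep the mark, with no difference from WT H1 that passed, a second reference was added after these values were seen, which averages WT H1 with both single enzyme knockouts, in which the study reports a decreased mark. Against it the same 8 members were higher and 13.5% of all genes were, with ID2 just under 3-fold without EZH2-/-/EZH1-/- H1 sample 1, EZH2-/- H1 sample 2 or EED-/- H1 sample 2 (1.55 to 1.57). ID1 then differed by 0.17 ± 0.17 (interval -0.21 to 0.55; limma, adjusted p = 0.4) and ID3 by -0.04 ± 0.15 (interval -0.38 to 0.29; limma, adjusted p = 0.81). Every PRC2-null sample lay above every sample of the other 3 lines for 7 of 10 members, the 6 ligands and ID4, as it did for 24.2% of all genes tested.

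By line, limma called 6 of 10 members higher in EED-/- H1 cells (all ligands; 16.2% of all genes), 7 in SUZ12-/- H1 cells (all ligands but BMP6, with ID2 and ID4; 14.5%), and 7 in EZH2-/-/EZH1-/- H1 cells (all ligands and ID4; 11.6%). In EZH2-/-/EZH1-/- H1 cells, 4 members were called when only its samples and WT H1 were fitted. EED-/- H1 cells, in which all 6 ligands were called, had no ID gene past the threshold: ID4 was 3.0-fold higher at an adjusted p of 0.017 and ID2 1.67-fold at 0.26 (limma). That ID2 and ID4 were lower in EED-/- H1 than in SUZ12-/- H1 cells did not pass either (limma, SUZ12-/- H1 against EED-/- H1, 1.83 ± 0.52 with adjusted p = 0.032, and 1.77 ± 0.48 with adjusted p = 0.025), though ID4 did with median ratio scaling (limma adjusted p = 0.00805) and without either sample of EZH2-/-/EZH1-/- H1 (limma adjusted p of 0.00127 and 0.00122). The 2 lines that lack 1 enzyme had 0 members called by limma. In EZH1-/- H1 cells 0.0576% of all genes were higher and BMP7, ID1 and ID3 had an unadjusted p under 0.05. In EZH2-/- H1 cells the share was 0% and BMP4, BMP7 and ID1 had an unadjusted p under 0.05.

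**Figure D2:**
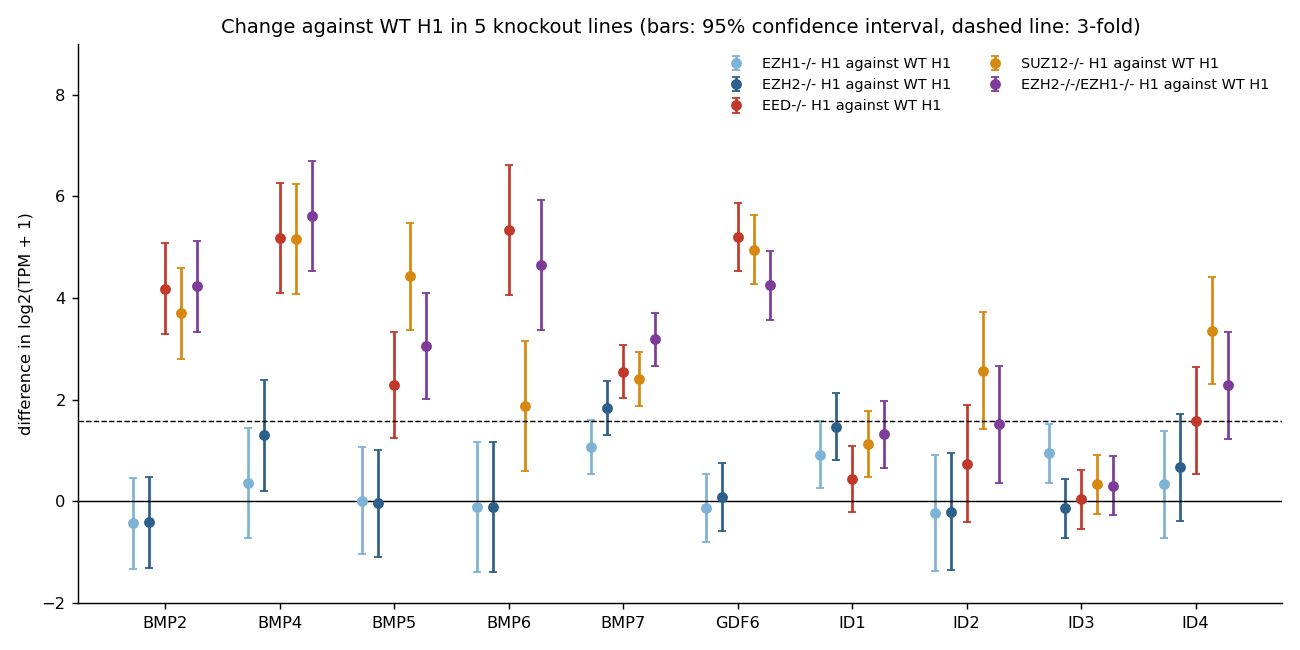
Difference in log2(TPM + 1) from WT H1 for each member and knockout line, with 95% confidence intervals from limma; the dashed line is a 3-fold change. The 3 PRC2-null lines stand above the dashed line for all 6 ligands and lie below it for ID1 and ID3, and SUZ12-/- H1 has the highest BMP5 and the lowest BMP6 of the 3.

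Summed over the 6 ligands, TPM was 12.6 to 51.2 in the samples that keep H3K27me3 and 269 to 606 in PRC2-null samples. The summed TPM of ID1 to ID4 was 273 to 621 and 324 to 784, and these ranges overlap. The overlap is with the single enzyme knockouts, since both WT H1 samples (323 and 273 TPM) lay below every PRC2-null sample, the higher one narrowly. The ID sum per unit of ligand sum was 12.1 to 24.5 in the former and 0.954 to 2.71 in the latter. BMP7 gave 52.5 to 74.2% of the ligand sum in every sample that keeps the mark, and BMP4 led in 5 of the 6 PRC2-null samples, with BMP6 first in EED-/- H1 sample 1. Among the 12 samples of the lines, ID1 or ID3 led the ID sum in all but the pair of SUZ12-/- H1 samples, in which ID2 gave 35.9 and 35.6%. The makeup of both sums therefore changed with the line, and only the ligand sum separated the PRC2-null samples from all samples that keep the mark.

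The DOX withdrawal course asked in which order ligands and ID genes moved as EED was lost. It has 1 sample a day, so onset days carry no test. A member was called risen at a day if log2(TPM + 1) was at least 1 above the +DOX sample, and its onset is the first day from which this held to day 28. Every rise is thus measured from 1 sample, whose treatment label gives +DOX while its title carries a day 28 tag, so the day of culture behind it is not certain.

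**Figure D3:**
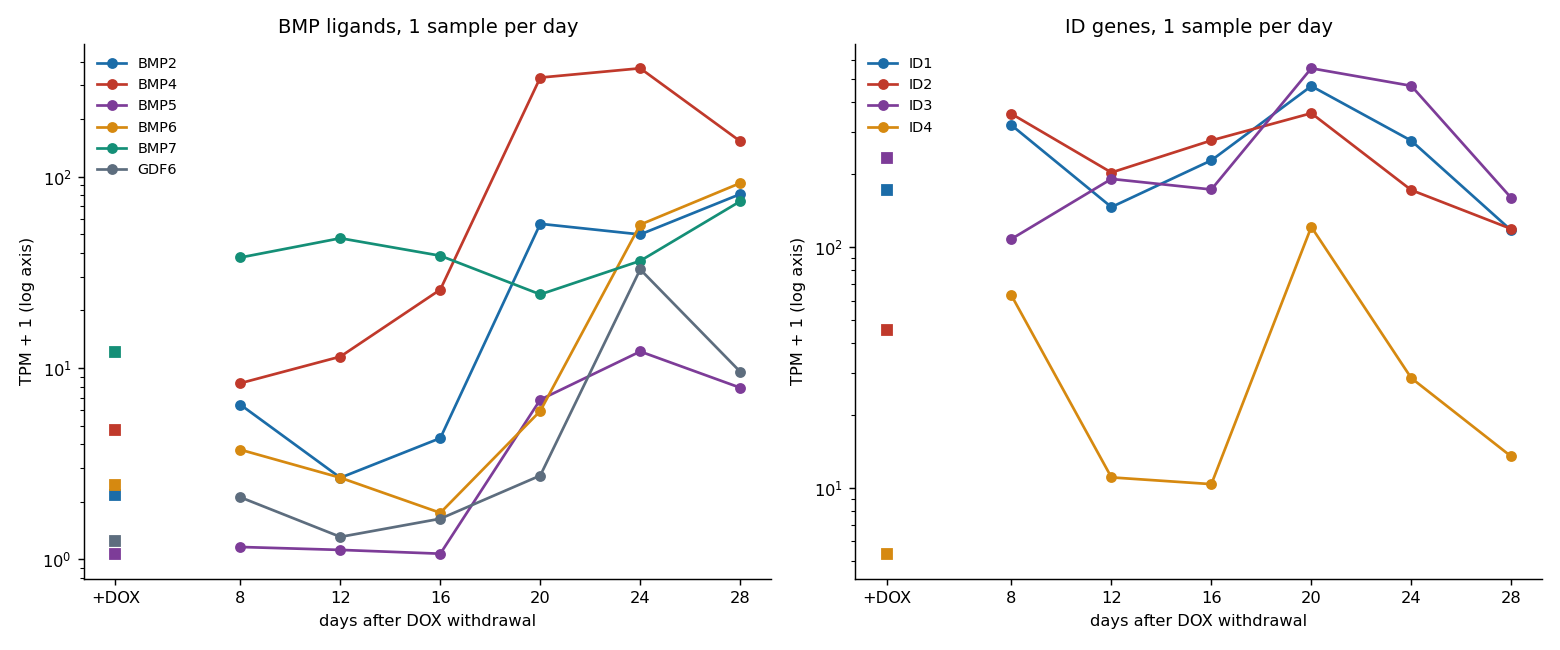
TPM + 1 on log axes for the 6 ligands (left) and ID1 to ID4 (right) in H1-EED-/-/EED-OE cells, with the +DOX sample as squares and 1 sample per day after DOX withdrawal as circles. BMP7 is raised from day 8, most other ligands climb between days 16 and 24, and all 4 ID genes are highest at day 20.

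At day 8, 4 of 10 members had risen (BMP2, BMP7, ID2 and ID4), against 11.4% of all genes. At day 12 there were 4 (BMP4, BMP7, ID2 and ID4; 12.0% of all genes), and at day 16 there were 3 (BMP4, BMP7 and ID2; 12.9%). At day 20 all 10 had risen (20.2% of all genes), at day 24 there were 9 (25.3%), and at day 28 there were 8 (32.6%). The 2 members missing at day 28 were ID1 and ID3. The pluripotency marker sum was 5229 TPM with DOX, 5551, 6420 and 6155 TPM at days 8, 12 and 16, 2702 TPM at day 20, and 477 and 469 TPM at days 24 and 28.

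BMP7 had the earliest kept rise of the ligands at this threshold. From 11.1 TPM with DOX it went to 36.8, 46.7, 37.6, 23.3, 35.3 and 73.3 TPM at days 8, 12, 16, 20, 24 and 28. It was past the threshold from day 8, narrowly at day 20, where the rise was 1.00. BMP4 came next. It went from 3.77 TPM to 7.33, 10.5, 24.7, 329, 368 and 152 TPM, with an onset at day 12 and its largest step between days 16 and 20. The order of these kept onsets depended on the setting: both were at day 8 with WT H1 as the reference or a rise of 1.5 times. The onset of BMP7 was later than that of BMP4 with median ratio scaling (days 24 and 12) or a rise of 3 times (days 24 and 16). In these last settings BMP7 still passed first, at day 8, and missed only day 20, while BMP4 first passed at days 12 and 16.

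BMP2 and BMP5 stepped up with BMP4. BMP2 went from 1.18 TPM to 5.43, 1.67, 3.30, 55.7, 48.9 and 80.1 TPM, so that a first rise at day 8 was not kept and the onset was day 20. BMP5 went from 0.06 TPM to 0.16, 0.12, 0.07, 5.83, 11.2 and 6.89 TPM, with an onset at day 20. BMP6 and GDF6 passed at day 20 by little and were high later: BMP6 went from 1.46 TPM to 2.74, 1.67, 0.75, 4.96, 55.2 and 91.5 TPM, and GDF6 from 0.24 TPM to 1.11, 0.31, 0.63, 1.74, 31.8 and 8.57 TPM. Requiring a 3-fold rise moved both of their onsets to day 24. A pseudocount of 0.1 moved the onsets of GDF6 and BMP2 to day 16, each with a first rise at day 8, and left BMP6 at day 20. With a rise of 1.5 times the onset of BMP2 was also day 16, and BMP6 and GDF6 had a first rise at day 8 that was not kept.

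ID2 had the earliest kept rise of the ID genes at this threshold. From 44.4 TPM with DOX it went to 356, 203, 276, 358, 171 and 118 TPM, with an onset at day 8, and its day 8 value was as high as its day 20 value. ID4 rose from 4.30 TPM to 62.0 TPM at day 8, fell back to 10.1 and 9.38 TPM at days 12 and 16, and reached 120, 27.6 and 12.5 TPM at days 20, 24 and 28. Its rise at day 16 was 0.97, just under the threshold, so its onset was day 20. It had the same onset as ID2, day 8, with WT H1 as the reference, a rise of 1.5 times or a pseudocount of 0.1, and neither gene kept a rise of 3 times. Both were high at day 8, before the step in BMP4. The ligand sum was 17.8 TPM with DOX and 53.6 TPM at day 8, 68.7% of it BMP7. BMP2 also went from 1.18 TPM with DOX to 5.43 TPM at day 8, and to 1.67 and 3.30 TPM at days 12 and 16. Markers of other cell types were also raised at that day: the trophoblast and amnion sum was 14.2 TPM with DOX and 50.9, 27.7 and 13.9 TPM at days 8, 12 and 16, and the neural sum 78.3 TPM with DOX and 235, 133 and 135 TPM (marker genes as listed at the end). In the samples that keep the mark the neural sum was 94.5 to 196 TPM. The +DOX sample lay below that range, days 12 and 16 within it and day 8 above it. The part of these cell types in the ID values at day 8 was not tested.

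ID1 and ID3 had no kept onset. ID1 went from 171 TPM to 319, 145, 228, 464, 275 and 116 TPM, past the threshold on day 20 alone and below the +DOX sample at day 28. ID3 went from 232 TPM to 107, 191, 172, 551, 466 and 159 TPM, lower than with DOX at days 8, 12, 16 and 28 and past the threshold at days 20 and 24. At day 8, when ID2 and ID4 had risen by 2.97 and 3.57 on the log2 scale, ID3 was lower by -1.11. With WT H1 as the reference that difference was -0.31, and ID3 at days 12, 16 and 28 was higher by 0.52, 0.38 and 0.26; the +DOX sample read above both WT H1 samples. The pooled SD between samples of a line was 0.30 for ID3, 0.35 for ID1, 0.67 for ID2 and 0.57 for ID4 on that scale.

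All 4 ID genes had their highest value of the 7 samples at day 20, as 10.3% of all genes tested did. At day 20 the ID sum was 1494 TPM, the highest of the 19 samples, and it was 940 TPM at day 24 and 406 TPM at day 28, below the 452 TPM with DOX. The ligand sum was 17.8 TPM with DOX, 53.6, 60.9 and 67.1 TPM at days 8, 12 and 16, and 420, 550 and 413 TPM at days 20, 24 and 28. The ID sum per unit of ligand sum went from 25.4 with DOX to 15.8, 9.01, 10.2, 3.56, 1.71 and 0.983. By day 28 ligands and ID sum together lay where the EED-/- H1 samples lay, with 339 and 425 TPM of ligand and 324 and 447 TPM of ID transcripts.

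**Figure D4:**
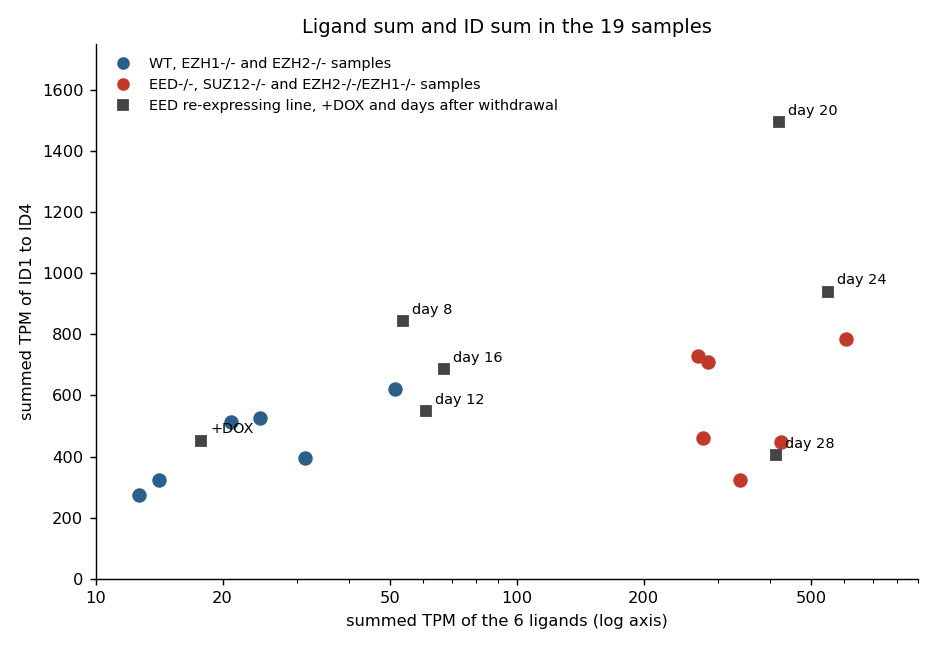
Summed TPM of ID1 to ID4 against summed TPM of the 6 ligands (log axis) in the 19 samples; circles are samples of the lines, squares are the DOX samples. The PRC2-null samples lie at 269 to 606 TPM of ligand, with ID sums that overlap those of the samples that keep H3K27me3, and day 20 stands highest at 1494 TPM of ID transcripts.

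When days 20, 24 and 28 were set against days 8, 12 and 16 as if the days were replicates, limma called 3 of 10 members higher (0.963% of 17245 genes): BMP2 by 3.87 ± 0.37 (adjusted p = 0.0031), BMP4 by 4.30 ± 0.48 (adjusted p = 0.0051) and BMP5 by 2.96 ± 0.35 (adjusted p = 0.0051). BMP5 and GDF6 passed the filter of this fit only through the later days. No ID gene was called by limma, and of the 4 only ID3 had an unadjusted p under 0.05 (1.17 ± 0.47, adjusted p = 0.15). BMP7 differed by -0.03 ± 0.39, and it was already raised at day 8. The count was 0 by limma without day 8, 12 or 24, 1 without day 16 or 28, and 5 without day 20, when BMP6 and GDF6 were added, so it rests on single days.

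The rest of the route was read through fixed gene lists. Many of their genes passed the filter on low values only through PRC2-null samples, so that a difference was built in: 2 of 7 receptors (ACVRL1 and BMPR1B), 1 of 6 SMADs (SMAD9), 6 of 11 antagonists (with GREM1), 5 of 9 other ligands (with GDF7 and BMP8B) and 8 of 13 other responsive genes (with TBX3 and MSX1). The counts below are therefore a description, and 13.6% of all genes tested were higher in the PRC2-null average. Of 7 BMP receptors, 4 were higher in the PRC2-null average by limma, led by the type I receptor ACVRL1 (3.87 ± 0.35, adjusted p = 6.5e-06) and the type II receptor BMPR2 (2.61 ± 0.29, adjusted p = 2.7e-05), and the median difference of the list was 1.61 against 0.28 over all genes tested. Of 6 SMADs, 3 were higher (median 1.19), led by SMAD6, an inhibitory SMAD that the route induces (2.64 ± 0.39, limma adjusted p = 0.00022), and SMAD9, a receptor-activated SMAD (2.29 ± 0.39, limma adjusted p = 0.00058). The transducers SMAD1 and SMAD4 differed by -0.09 ± 0.45 and 0.03 ± 0.38 (limma adjusted p = 0.88 and 0.95).

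Of 11 secreted or membrane antagonists of BMP, 10 were higher by limma (13.6% of all genes were) and 1 was lower (median 2.78). The largest rises were those of GREM1, a secreted BMP trap (5.78 ± 0.55, adjusted p = 9.3e-06), and FST, a trap of activins and some BMPs (5.09 ± 0.33, adjusted p = 6.3e-07). CHRDL1, a chordin-like antagonist, fell by 2.08 on the log2 scale (limma adjusted p = 0.00064), where 5.36% of all genes were lower. GREM1 read 0.17 to 0.36 TPM in the samples that keep the mark and 11.8 to 215 TPM in PRC2-null samples. Ligands and their antagonists were thus high in the same cultures, and the TPM of neither says how much ligand was free.

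Of 12 other BMP and GDF ligands, 9 were tested and 3 were higher (median 1.00), where 13.6% of all genes were. They were GDF15, a stress-induced distant family member (5.81 ± 0.30, limma adjusted p = 1.7e-07), GDF7 (3.79 ± 0.45, limma adjusted p = 4.3e-05) and BMP8B. All 13 other BMP-responsive genes were higher by limma (median 4.14), 8 of them having passed the filter only through PRC2-null samples, with the largest rises in the T-box factor TBX3 (5.83 ± 0.27, adjusted p = 9.6e-08) and the homeobox factor MSX1 (4.96 ± 0.26, adjusted p = 1.7e-07). That list holds SMAD6, SMAD7, BAMBI and NOG, which are also in the SMAD or antagonist lists, and several of its members are lineage factors known as PRC2 targets in stem cells. Of the 3 E-protein partners of ID proteins, TCF3, TCF4 and TCF12, 0 were called by limma. TCF3 differed by -0.66 ± 0.14 (limma adjusted p = 0.0022), short of the 3-fold required.

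Over the days, 13 of 13 other BMP-responsive genes had risen by at least 1 on the log2 scale at day 20 (20.2% of all genes), against 3 at day 8 (11.4%), 5 at day 12 (12.0%) and 3 at day 16 (12.9%). At days 24 and 28 there were 13 and 12 (25.3% and 32.6%). The antagonists went from 3 of 11 at day 8 to 2, 2, 9, 9 and 10 at days 12 to 28. The other ligands went from 0 of 12 at day 8 to 3, 2, 2, 4 and 7, with GDF3 and NODAL the 2 at day 16. By limma, days 20 to 28 against days 8 to 16 gave 7 of 13 responsive genes (0.963% of all genes). The largest rises were those of MSX1 (4.56 ± 0.53, limma adjusted p = 0.0051) and BAMBI (4.42 ± 0.34, limma adjusted p = 0.0015). Of these 13 genes, 4 passed the filter of this fit only through the later days, 1 of the 7 called among them. A difference was thus built into their passing, and the count is a description. The same fit called 1 of 7 receptors (ACVR1, 1.71 ± 0.23, limma adjusted p = 0.0082) and 1 of 11 antagonists (BAMBI). It called none of the SMADs, the other ligands or the E proteins, although the SMAD list had a median of 1.31 against 0.06 over all genes.

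The sums of endoderm, trophoblast and amnion, and fibroblast markers were higher in every PRC2-null sample than in any sample that keeps the mark. The 6 endoderm markers SOX17, FOXA2, GATA4, GATA6, AFP and TTR summed to 4.72 to 14.8 TPM in the samples that keep the mark and 879 to 16901 TPM in PRC2-null samples, and the 6 trophoblast and amnion markers CDX2, GATA3, TFAP2A, KRT7, CGA and ISL1 to 12.3 to 15.3 and 139 to 476 TPM. The 4 fibroblast markers COL1A1, COL3A1, DCN and LUM summed to 22.6 to 44.2 and 2468 to 20478 TPM. The 6 mesoderm and endothelium markers T, MIXL1, HAND1, KDR, PECAM1 and CDH5 summed to 33.2 to 134.5 and 59.5 to 444 TPM, and the 4 neural markers PAX6, SOX1, NES and OTX2 to 94.5 to 196 and 67.1 to 385 TPM, both with overlapping ranges. KDR (mean 58.5 TPM) and NES (92.8 TPM) were the largest parts of these sums in WT H1. By gene, T, MIXL1, HAND1, PECAM1, CDH5 and PAX6 were higher in every PRC2-null sample, as were 24.2% of all genes tested. MIXL1 was so only narrowly (1.60 against 1.53 TPM), and KDR, SOX1, NES and OTX2 overlapped. In the course the mesoderm sum was 40.4 TPM with DOX and 65.8, 207, 620, 968, 522 and 295 TPM from day 8 to day 28, so it was raised at days 12 and 16, before the step in the ligand sum, and highest at day 20 as the ID sum was. The endoderm sum was 3.9 TPM with DOX and 25.6 and 85.4 TPM at days 12 and 16, also before the step in the ligand sum. It was highest at day 28 (793 TPM), as were the neural sum (324 TPM) and the trophoblast and amnion sum (146 TPM). The fibroblast sum was still 76.5 TPM at day 20, after that step, and highest at day 24 (4826 TPM). The part of these cell types in the ligand and ID values was not tested.

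The genes most like each member over the 19 samples, by Pearson's r of log2(TPM + 1) among 19721 genes, are given as a description, with samples that share a genotype or a course. BMP4 was most like GATA3 (r = 0.979), PCDH17 (0.974) and MSX2 (0.974), BMP2 most like LINC00261 (0.983), PSTPIP2 (0.981) and COLEC12 (0.981), and BMP5 most like OSR1 (0.983), HOXA13 (0.978) and HAND2 (0.977). BMP6 was most like EDN1 (0.986), SGK223 (0.981) and FAM43A (0.979), and GDF6 most like ASXL3 (0.988), LOX (0.985) and TIMP3 (0.983). BMP7 had a looser match, with VPS37B (0.909), GP1BB (0.896) and COMMD3 (0.894). Among the ID genes, ID2 was most like OLFML3 (0.950), CNTFR (0.917) and CLEC4F (0.911), and ID4 most like SAMD11 (0.928), MYO3B (0.898) and BOC (0.894). ID3 was most like RADIL (0.816), GPSM3 (0.813) and SNAI1 (0.783), and ID1 most like FAM27C (0.712), NR5A1 (0.693) and TFAP2C (0.686), the lowest best match of the 10 members.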

How the data were processed

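RNA-seq of 12 samples from WT H1 and 5 knockout lines and of 7 samples from the line H1-EED-/-/EED-OE was used. The authors mapped reads of TruSeq libraries to an mRNA reference on GRCh38 with Bowtie2 and RSEM, and deposited TPM for 33382 genes per sample; the labels also list hg19, with no role given. The edgeR test that the authors describe needs read counts and was not run. Files were joined by Ensembl identifier, since 33 gene names differed between files. limma 3.58.1 (R 4.3.3) with trend and robust options was fitted to log2(TPM + 1), with Benjamini-Hochberg adjustment, two-sided, over genes that reached 1 TPM in 2 or more samples. A fold change on this scale understates that of low genes. The fit was tested on simulated data for the PRC2-null average only, with the same spread of a gene in all lines. The replicates of the real lines differed in spread, so that test does not cover the contrasts between PRC2-null lines. Depth is unknown, so precision rests on the replicates, and p-values measure only the spread between these samples. The line fit had 6 residual degrees of freedom and the fit of days 4. Named genes are the 10 members, the 4 targeted genes, the 2 largest rises and falls called per list, and the 3 genes most like each member. The members and lists were chosen with earlier results of these data known. Python 3.11.15 with pandas 2.3.3, numpy 2.4.6 and matplotlib 3.10.9 was used. Alternatives were another pseudocount, filter, scaling, threshold, samples fitted and block, and leaving out samples or days; averaging the SUZ12-/- H1 samples, the second reference and the looser motif were added after seeing the data.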

Additional observations from a re-analysis of the deposited data

Results flagged for a closer look

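The following 3 differences between PRC2-null lines under the same contrast with WT H1 passed the limma test of the difference itself. BMP5 was higher in SUZ12-/- H1 than in EED-/- H1 cells by 2.13 on the log2(TPM + 1) scale. BMP6 was lower in SUZ12-/- H1 than in EED-/- H1 cells by -3.47, and lower than in EZH2-/-/EZH1-/- H1 cells by -2.78. The SUZ12-/- H1 samples lay closer together than those of any other line, with a median difference of 0.088 on the log2 scale over genes at 10 TPM or more against 0.134 to 0.505, and none of the 3 calls remained when they were averaged into 1 sample (limma adjusted p = 0.0632, 0.0197 and 0.0655).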

How the results depend on the processing

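No called value of a member changed direction under the alternatives tried. Of 2006 values of members under alternatives, 39 had another direction than the main value, and none of these was called in either fit. ID3 in the PRC2-null average turned to -0.043 against the second reference, and BMP7 at the later days to 0.259 by a linear trend with day. Leaving out samples gave -0.174 to 0.088 for ID3 against the second reference, and leaving out days -0.472 to 0.336 for BMP7. With only the lines compared, EZH2-/-/EZH1-/- H1 had 4 members called, and SUZ12-/- H1 against EED-/- H1 and against EZH2-/-/EZH1-/- H1 had 1 and 0. With a pseudocount of 0.1 or no filter these last were also 1 and 0, and with the SUZ12-/- H1 samples averaged 0 and 0. With an adjusted p of 0.05 and no fold cutoff, EZH2-/- H1 had 1 member (BMP7) and SUZ12-/- H1 against EED-/- H1 had 4. Of the 19100 genes tested, 6 were higher and 6 lower in EZH2-/- H1 at that setting. In SUZ12-/- H1 against EED-/- H1, 1758 were higher and 1978 lower. Replicate numbers did not pair the samples (mean correlation of deviations -0.003, 1 of 15 pairs over 0.1), and the replicate block gave 1 member for SUZ12-/- H1 against EED-/- H1, BMP6, with BMP5 no longer called. The later days gave 1 member with no filter and 0 by a linear trend with day. Members with a kept onset by day 8 were 2, and 4 with WT H1 as the reference or a rise of 1.5 times, 1 with median ratio scaling and 0 with a rise of 3 times; by day 16 they were 3, and 5, 6 and 1 with a rise of 1.5 times, a pseudocount of 0.1 and a rise of 3 times. Leaving out samples gave 7 to 8 members for the PRC2-null average with either reference, 5 to 6 for EED-/- H1, 6 to 8 for SUZ12-/- H1, 6 to 7 for EZH2-/-/EZH1-/- H1, 0 to 0 for each single enzyme knockout, 0 to 3 for SUZ12-/- H1 against EED-/- H1, 0 to 1 for EZH2-/-/EZH1-/- H1 against EED-/- H1, 0 to 2 for SUZ12-/- H1 against EZH2-/-/EZH1-/- H1, and 0 to 5 for the later days. The causes were not tested. Median ratio scaling shifted the median difference of all genes in the PRC2-null average by -0.098. One sample per day and 2 per line limit the precision.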
